A study of Mus musculus with 36 samples.

Results

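The Rab genes encode small GTPases that direct membrane traffic, and their mRNA levels were followed while B cells were turned into macrophages. The members were the genes of the deposited log2 normalised tables whose symbol is Rab followed by a number, an optional letter and an optional number, which gave 56 of 19067 listed genes. A further 3 symbols of this form, Rab17, Rab26 and Rab9b, stood in the count tables of 40354 genes but not in the log2 tables, and were not followed. Of the 56 members, 55 passed the filter on low counts in the fits and Rab42 did not, with at most 0.593 CPM (counts of a gene scaled to the total of the library) in a library. The symbol Rab1 is listed as Rab1a in the gene annotation, and Rab7 and Rab9 are the genes often written as Rab7a and Rab9a.

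A Rab protein is a molecular switch: guanine nucleotide exchange factors (GEFs) load it with GTP on a membrane, where it recruits effectors that move, tether or fuse vesicles, and GTPase-activating proteins (GAPs) turn it off. Each Rab marks its own set of membranes, so that early endosomes, late endosomes, the Golgi and secretory granules carry different members. Macrophages take up and degrade particles and release granule content, and Rab proteins of the endosome, phagosome and lysosome are part of that machinery.

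B cells from the bone marrow of C57BL/6J mice were infected with a retrovirus that carries C/EBPα fused to the hormone-binding part of the estrogen receptor and a human CD4 tag, so that estradiol (E2) switches the factor on. The construct was wild-type (WT) or had arginine 35 replaced by alanine (R35A) or lysine (R35K). Poly(A) RNA was sequenced at 0, 1, 3, 6, 18 and 120 hours post-induction (hpi), with 2 libraries for each of the 18 groups of construct and time, and the 120 hpi samples are labelled as macrophages. Groups at 0 hpi are infected cells without E2, and no uninfected cells enter the comparisons. All cells had been selected for the human CD4 tag and were grown on mitomycin-inactivated mouse embryo fibroblasts with IL-7, and during induction also with IL-3, FLT-3, CSF-1 and SCF. C/EBPα was thus expressed from a virus above the level of the cell, and feeder cells were removed by their stronger adherence. By the paper's methods, the medium renewed every 2 days lacked IL-7. Its withdrawal therefore cannot be told apart from time after induction at 120 hpi. The labels do not say which libraries came from separate animals or infections, so p-values measure the spread between these samples only.

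Total counts per library ran from 13044456 to 23131776. The 20 B cell markers of the study summed to between 5454 and 5940.1 CPM at 0 hpi and to between 255 and 359.0 CPM at 120 hpi, and its 20 macrophage markers to between 91.6 and 106 CPM at 0 hpi and between 12495 and 13605 CPM at 120 hpi. Both lists serve here only to check the labels. Of the feeder fibroblast markers, 12 of 12 were present. Without Fn1, which macrophages also express and which was left out after its values were seen, the other 11 (collagens, Dcn, Lum, Postn, Pdgfra and others) summed in WT to a mean of 3601, 6019, 8632 and 252 CPM (at 0, 1, 18 and 120 hpi in turn). Feeder RNA thus moved with time in these bulk libraries, and in bulk RNA fewer cells of a type and less RNA per cell cannot be told apart. The markers of granulocytes, mast cells or basophils, and T or NK cells summed to at most 51.4 CPM per list in any library. The erythroid or megakaryocyte list rose from at most 15.3 CPM at 0 hpi to between 308 and 653 CPM at 120 hpi, led by Pf4, while Hba-a1 was at or near 0; its part in the results was not tested.

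A gene was called changed when edgeR's quasi-likelihood test gave an adjusted p no higher than 0.05 (Benjamini-Hochberg, over all genes tested) and the fold change was at least 1.5. At 120 hpi against 0 hpi, 21 of 55 Rab genes rose and 16 fell in WT, while 23.1% of all tested genes rose and 40.2% fell. In R35A, 21 rose and 14 fell (24.2% and 39.0% of all genes), and in R35K 22 rose and 14 fell (25.4% and 38.5%). The median log2 fold change of the Rab genes was 0.06 in WT against -0.36 for all genes, 0.10 against -0.31 in R35A and 0.04 against -0.28 in R35K. In all 3 constructs, 19 Rab genes rose and 13 fell, where 20.1% and 32.9% of all genes did so. Another 15 members were called in none, and 8 in 1 or 2 constructs. The constructs gave opposite calls for 0 members at 120 hpi.

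Fewer members moved earlier. At 1 hpi 10 Rab genes rose and 3 fell in WT (10.7% and 9.27% of all genes), 11 and 5 in R35A (18.3% and 18.9%), and 12 and 5 in R35K (15.5% and 17.4%). Without replicate 2 of WT at 0 hpi the WT count of 13 was 8. At 18 hpi 16 rose and 4 fell in WT (23.9% and 23.2%), 15 and 4 in R35A (21.0% and 21.6%), and 14 and 5 in R35K (18.4% and 20.5%). The fallen members were thus fewer than the share of all genes that fell at 18 hpi in each construct, and the median Rab gene stood at 0.44 on the log2 scale in WT against 0.02 for all genes. Feeder markers rose over the same hours, 10 of 11 at 1 hpi and 10 of 11 at 18 hpi in WT, and their part in the small early rises of the Rab genes was not tested. Before induction R35A and WT did not separate: edgeR called 0 of 55 Rab genes (0.0% of all genes rose and 0.0% fell). With the unadjusted p in place of the adjusted one and the same fold threshold, 0 Rab genes passed, against 261 of all genes.

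**Figure D1:**
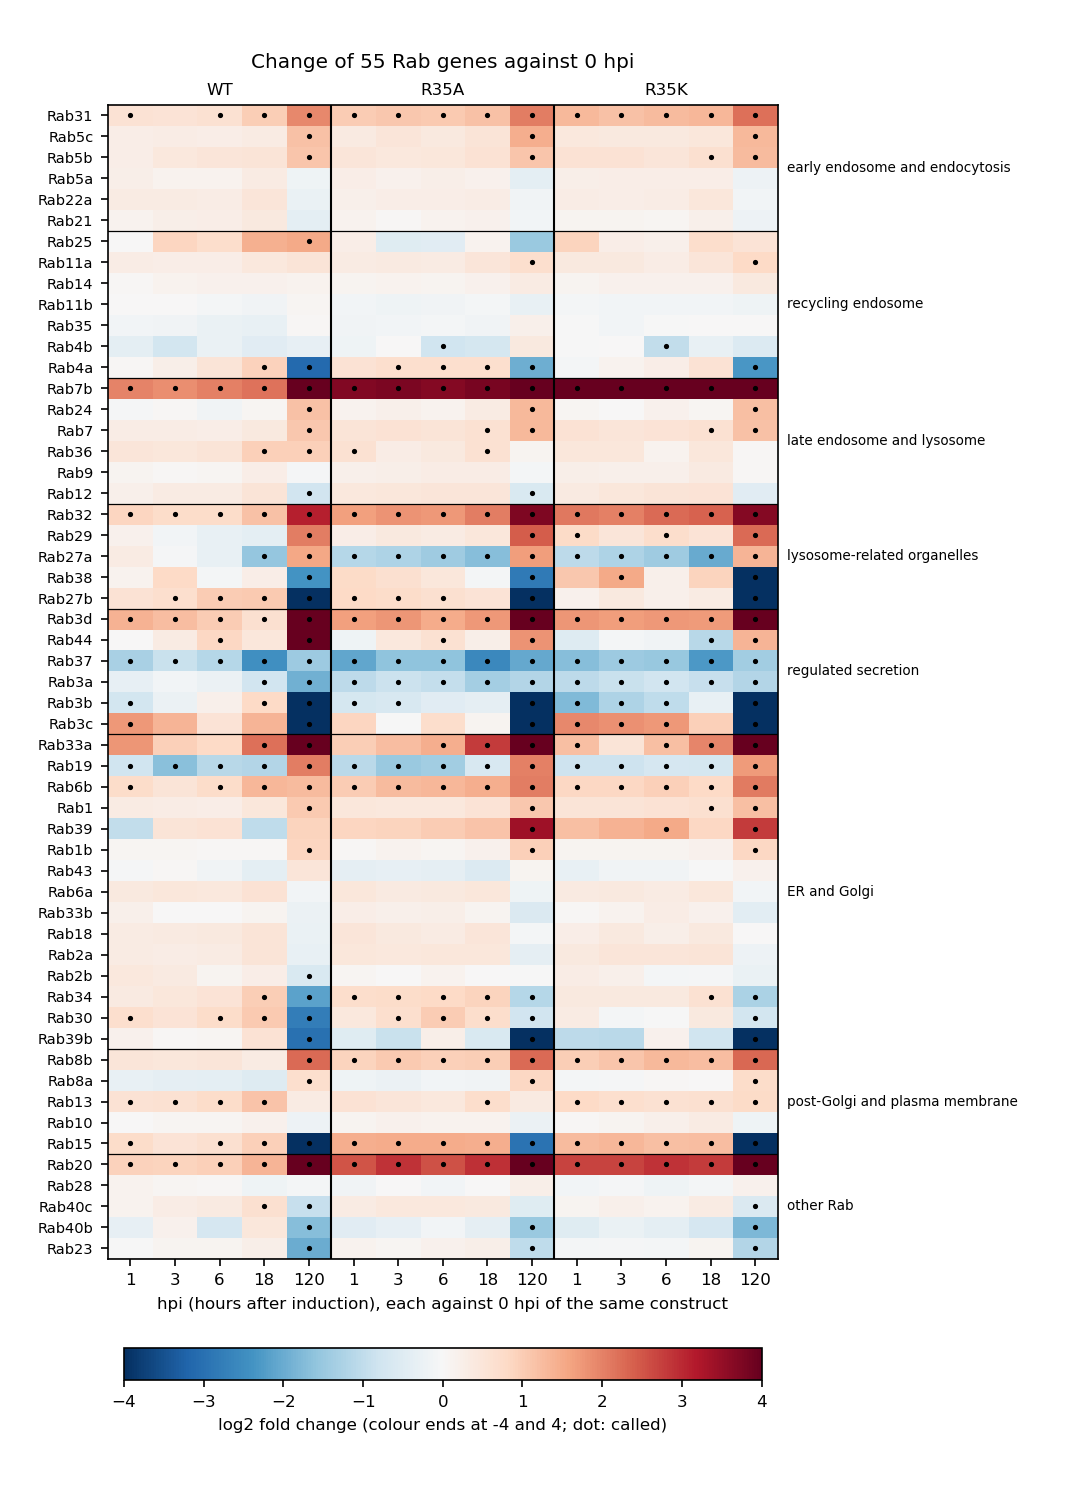
Log2 fold change of the 55 tested Rab genes (rows, grouped by role and ordered by WT at 120 hpi) against 0 hpi of the same construct, with a column for each of the 5 later times from 1 to 120 hpi, with colour ending at -4 and 4 and a dot on each called change. Apart from Rab7b in the mutants, the deepest colours of both signs lie in the 120 hpi columns of all 3 constructs, where 21, 21 and 22 members rose and 16, 14 and 14 fell, while the Rab7b and Rab20 rows are red from 1 hpi on.

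The level of the family as a whole rose. Rab genes took between 0.297% and 0.314% of all counts in the 6 libraries at 0 hpi, and between 0.423% and 0.453% in the 6 at 120 hpi. Compared per kilobase of exon, the highest members in WT at 0 hpi were Rab5c, which serves the early endosome, with 9.15% of the summed Rab level per kilobase, Rab7, which drives fusion with lysosomes, with 8.71%, Rab1, which serves the step from the endoplasmic reticulum (ER) to the Golgi, with 8.36%, and the Golgi member Rab2a with 7.85%. At 120 hpi the order was Rab5c with 11.4%, Rab7 with 10.1%, Rab1 with 9.60% and Rab1b, the sister of Rab1, with 6.72%. Rab7b came next with 6.62%. Its libraries (6.57% and 6.67%) lay between those of Rab1b (6.53% and 6.91%), so the order of these 2 was not resolved. The shares of Rab5c and Rab7 in the 2 libraries at 0 hpi overlapped (8.74% and 9.57% against 8.70% and 8.71%), so their order was not resolved, and with the longest transcript as length Rab1 stood first at both times.

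In CPM, which are not corrected for length, the members highest per kilobase were Rab5c at 161 and 173 CPM in the WT libraries at 0 hpi and 375 and 339 at 120 hpi, Rab7 at 191 and 187 CPM in the WT libraries at 0 hpi and 384 and 373 at 120 hpi, and Rab1 at 269 and 259 CPM in the WT libraries at 0 hpi and 514 and 530.3 at 120 hpi. Rab14 at 0 hpi and Rab7b at 120 hpi stood above Rab5c and Rab7 in CPM. Each of Rab5c, Rab7 and Rab1 rose in all 3 constructs. The log2 fold change of Rab1 was 1.06 ± 0.041 (SE) in WT, 1.08 ± 0.041 in R35A and 1.2 ± 0.046 in R35K, with an adjusted p of at most 2.09e-22. Rab2a was 139.9 and 138 CPM in the WT libraries at 0 hpi and 107 and 107 at 120 hpi, a log2 fold change of -0.31 ± 0.041 (SE) that missed the fold threshold. It belongs to 14 of the 55 members that were called at no time in any construct, over 15 comparisons with 0 hpi. The others were Rab10, Rab11b, Rab14, Rab18, Rab21, Rab22a, Rab28, Rab33b, Rab35, Rab43, Rab5a, Rab6a and Rab9. The largest fitted change among all 14 was 0.58 in size on the log2 scale (Rab6a in WT at 18 hpi, Rab33b in R35A at 120 hpi). Membership of this list can depend on the scaling. DESeq2 size factors moved the median of all genes up by 0.115 at 18 hpi in WT, and more Rab genes were then called up.

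Among the late endosome and lysosome members, 4 of 6 rose and 1 fell in WT at 120 hpi (23.1% and 40.2% of all genes), with a median log2 fold change of 1.02 against -0.36 for all genes. Rab7b, a relative of Rab7 that acts between endosomes and the trans-Golgi network, was 8.27 and 7.91 CPM in the WT libraries at 0 hpi and 439.6 and 436 at 120 hpi. It gave 6.26 and 6.36 against 259 and 280.5 CPM in R35A, and 6.64 and 6.98 against 317 and 321 in R35K. All 120 hpi libraries lay above all 0 hpi libraries, and the log2 fold change was 5.83 ± 0.057 (SE) in WT, 5.43 ± 0.060 in R35A and 5.60 ± 0.061 in R35K, with an adjusted p of at most 1.38e-38. Rab7 itself rose by less, with a log2 fold change of 1.07 ± 0.037 in WT. Of the level per kilobase that the pair shared, Rab7b held 2.36% in WT at 0 hpi and 39.5% at 120 hpi, and 25.0% and 30.2% in R35A and R35K at 120 hpi.

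Rab24, linked to autophagy, was 24.7 and 23.5 CPM in the WT libraries at 0 hpi and 51.6 and 51.1 at 120 hpi, with a log2 fold change of 1.16 ± 0.071 (SE) in WT, 1.30 ± 0.069 in R35A and 1.22 ± 0.072 in R35K, with an adjusted p of at most 5.67e-17. Its exons overlap those of Prelid1 on the other strand, which has the higher counts. Rab12, which sends transferrin receptor to degradation, was 76.0 and 70.4 CPM in the WT libraries at 0 hpi and 41.4 and 40.0 at 120 hpi; it fell in WT (-0.78 ± 0.060, adjusted p = 7.77e-17) and R35A (-0.61 ± 0.054), while R35K gave -0.44 ± 0.052. The call in R35A was lost without replicate 1 at 0 hpi or either library at 120 hpi. It was also lost with DESeq2, DESeq2 size factors, limma or a fit on the compared groups alone, and the last lost the WT call too. Rab36, which binds the lysosome positioning machinery, rose in WT (0.96 ± 0.16, adjusted p = 2.55e-07), and gave 0.11 in R35A and 0.05 in R35K. Rab9, which returns receptors from late endosomes to the Golgi, moved little (-0.03 in WT).

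Of the 6 early endosome members, 3 rose in every construct and 0 fell, where 23.1% of all genes rose and 40.2% fell in WT, 24.2% and 39.0% in R35A, and 25.4% and 38.5% in R35K. The median log2 fold change was 0.47 in WT against -0.36 for all genes. Rab31, which acts between the Golgi and endosomes, was 98.2 and 95.1 CPM in the WT libraries at 0 hpi and 354 and 337 at 120 hpi. The mutants gave 102 and 95.8 against 382 and 427 CPM in R35A, and 97.1 and 92.4 against 424 and 411 in R35K. The groups did not overlap, and the log2 fold change was 1.91 ± 0.042 (SE) in WT, 2.05 ± 0.041 in R35A and 2.19 ± 0.042 in R35K, with an adjusted p of at most 2.57e-31. Against its close relative Rab22a, which was not called, the share of Rab31 in their joint level per kilobase went from 64.8% to 89.3% in WT. Of the Rab5 genes, whose products fuse early endosomes and label new phagosomes, Rab5c rose by 1.17 ± 0.040 and Rab5b by 1.11 ± 0.064 on the log2 scale in WT, and Rab5a gave -0.17 ± 0.053. Rab5c made up 75.9% of the level per kilobase of the Rab5 genes at 0 hpi and 84.5% at 120 hpi. Rab21, which carries integrins, gave -0.40 and was not called.

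Of the 5 genes of lysosome-related organelles, 3 rose and 2 fell at 120 hpi in each of the 3 constructs, beside 23.1% and 40.2% of all genes in WT, so that the falls were at the share of all genes. Rab32, which with Rab38 brings cargo to melanosomes and similar organelles, was 19.0 and 18.7 CPM in the WT libraries at 0 hpi and 156 and 155 at 120 hpi. The mutants gave 21.6 and 20.8 against 275 and 282 CPM in R35A, and 18.9 and 17.4 against 218 and 232 in R35K. Its log2 fold change was 3.11 ± 0.058 (SE) in WT, 3.74 ± 0.052 in R35A and 3.68 ± 0.057 in R35K, with an adjusted p of at most 5.96e-34. Rab29, which sits at the trans-Golgi network and recruits the kinase Lrrk2, was 8.05 and 8.78 CPM in the WT libraries at 0 hpi and 31.6 and 34.0 at 120 hpi, and 6.26 and 7.34 against 34.7 and 37.9 CPM in R35A, and 6.81 and 7.96 against 32.2 and 36.1 in R35K. Neither gene overlapped between 0 and 120 hpi, and the log2 fold change of Rab29 was 2.03 ± 0.10 (SE) in WT, 2.42 ± 0.099 in R35A and 2.26 ± 0.10 in R35K, with an adjusted p of at most 2.56e-20.

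Rab27a, which docks secretory granules and lysosome-related organelles at the plasma membrane, was 19.2 and 16.3 CPM in the WT libraries at 0 hpi and 49.1 and 49.4 at 120 hpi. The mutants gave 16.3 and 16.7 against 48.7 and 54.4 CPM in R35A, and 17.5 and 17.5 against 43.3 and 44.3 in R35K. The rise, with a log2 fold change of 1.54 ± 0.081 (SE) in WT, 1.66 ± 0.078 in R35A and 1.37 ± 0.079 in R35K, with an adjusted p of at most 2.41e-17, followed a dip given with the time courses. Its sister Rab27b went the other way, with 3.56 and 3.37 CPM in the WT libraries at 0 hpi and 0 and 0 at 120 hpi, and 5.43 and 4.02 against 0 and 0.0722 CPM in R35A, and 4.50 and 4.04 against 0.077 and 0.151 in R35K. Against a floor of 3 counts per library, Rab27b was at least 14.0-fold lower in WT at 120 hpi. With 1 and 3 counts left in the 120 hpi libraries of R35A and R35K, the ratio of 0 to 120 hpi was 123.8 (95% interval 21.9 to 4920.3, exact and for counting error only) and 37.4 (12.5 to 183.8). Rab38 was low throughout, with 1.07 and 0.366 CPM in the WT libraries at 0 hpi and 0.241 and 0 at 120 hpi, a ratio of 5.82 on 20 and 3 counts (95% interval 1.73 to 30.6); it was 7.74 (1.87 to 68.5) in R35A, and R35K, with 0 counts at 120 hpi, lay at least 1.63-fold lower. Its call was lost in WT without replicate 1 at 0 hpi or replicate 2 at 120 hpi, and in R35A without replicate 1 at 0 hpi or replicate 2 at 120 hpi.

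The promoters of 3 rising members are shown because they differ in the letters searched. Windows from 250 bases before to 50 after the start of the gene were taken from RefSeq (build GRCm38.p6) for 46 members. The C/EBP-like letters TTGCNNAA, on either strand, were in the windows of 4 of 46 members (8.7%) and of 12.2% of 27025 genes, and the PU.1-like letters GAGGAA in 11 members (23.9%) and 31.3% of genes. Rab29 held the first and Rab32 the second, with 2 matches of which 1 falls in the stretch shown, and Rab31 held neither in its 250 bases. The stretches end before the start of the gene in both annotations and run 5′ to 3′ on the strand of the gene, with the match in capitals. They are Rab29 (chr1:131867027-131867223, plus strand, 197 bases), Rab32 (chr10:10558266-10558457, minus strand, 192 bases, with the letters on the opposite strand) and Rab31 (chr17:65772753-65773002, minus strand, 250 bases). A match is a description of the sequence and not a measured site.
Rab29: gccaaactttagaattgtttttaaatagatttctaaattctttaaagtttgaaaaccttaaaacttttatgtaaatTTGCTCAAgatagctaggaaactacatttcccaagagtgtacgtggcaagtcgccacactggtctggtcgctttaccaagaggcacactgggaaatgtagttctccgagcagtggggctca
Rab32: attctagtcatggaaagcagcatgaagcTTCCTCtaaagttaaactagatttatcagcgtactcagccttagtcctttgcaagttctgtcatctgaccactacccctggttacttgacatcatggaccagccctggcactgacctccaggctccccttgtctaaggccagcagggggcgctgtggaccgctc
Rab31: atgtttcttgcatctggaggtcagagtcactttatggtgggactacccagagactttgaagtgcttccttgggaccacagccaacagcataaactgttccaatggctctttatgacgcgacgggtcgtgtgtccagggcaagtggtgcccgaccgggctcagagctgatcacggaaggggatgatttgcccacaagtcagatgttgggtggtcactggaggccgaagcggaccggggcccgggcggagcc

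**Figure D2:**
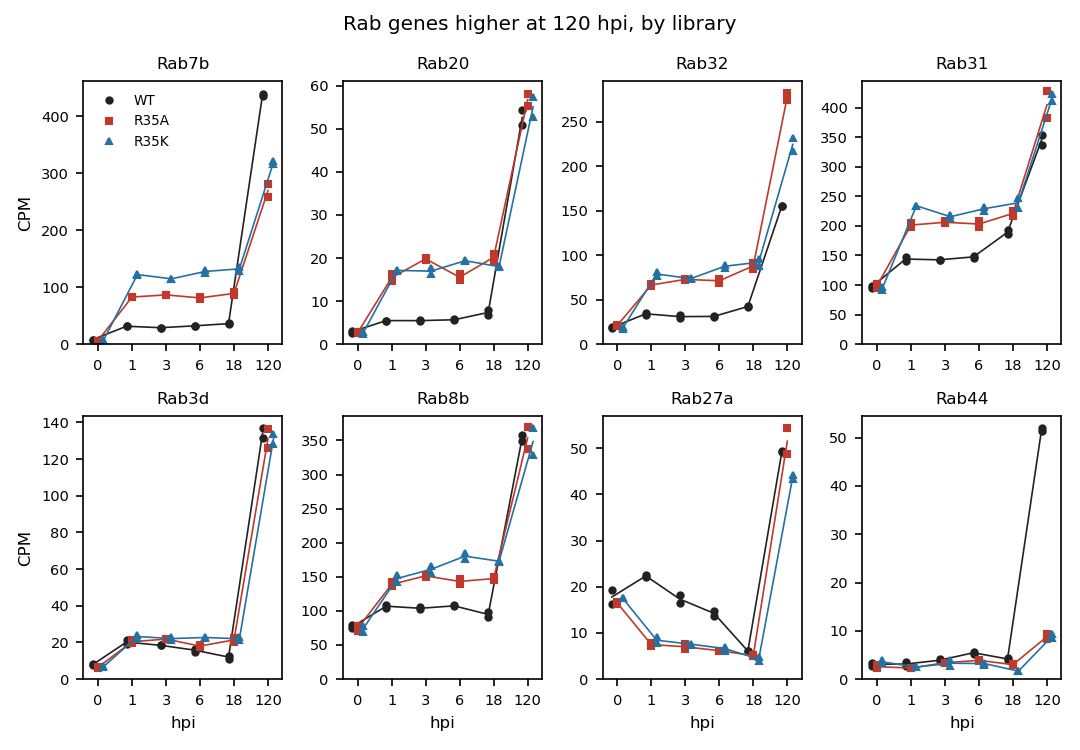
CPM (y axis, from 0) of 8 Rab genes that rose, by hpi (x axis, equally spaced categories, not to scale), with 1 point per library, 2 per group, and lines through the group means of WT, R35A and R35K. Rab7b, Rab20, Rab32, Rab31 and Rab8b stand above WT in both mutants from 1 to 18 hpi, Rab27a dips before it rises, and Rab44 at 120 hpi is 51.3 and 51.9 CPM in WT and 9.27 and 8.31 in R35A.

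Of the 6 members of regulated secretion 2 rose and 4 fell in all 3 constructs at 120 hpi, beside 23.1% and 40.2% of all genes in WT, and the median log2 fold change was -1.68 in WT against -0.36 for all genes. Rab3d, found on the granules of secretory cells, was 7.48 and 8.20 CPM in the WT libraries at 0 hpi and 137 and 131 at 120 hpi. The mutants gave 5.98 and 6.79 against 126 and 136 CPM in R35A, and 7.11 and 6.39 against 134 and 128 in R35K, and no 120 hpi library overlapped with 0 hpi. Its log2 fold change was 4.17 ± 0.080 (SE) in WT, 4.37 ± 0.080 in R35A and 4.32 ± 0.078 in R35K, with an adjusted p of at most 3.52e-32. Among the Rab3 genes, Rab3d held 17.5% of the level per kilobase in WT at 0 hpi and 95.2% at 120 hpi. Rab44, a large Rab of immune cells with a calcium-binding domain, was 3.42 and 2.78 CPM in the WT libraries at 0 hpi and 51.3 and 51.9 at 120 hpi. In the mutants the end level was lower, with 2.92 and 2.23 against 9.27 and 8.31 CPM in R35A, and 3.85 and 3.26 against 9.39 and 8.47 in R35K. Its log2 fold change was 4.12 ± 0.11 (SE) in WT, 1.81 ± 0.16 in R35A and 1.37 ± 0.17 in R35K, with an adjusted p of at most 4.62e-09.

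The other Rab3 genes, which control release in neurons and endocrine cells, fell. Rab3a was 14.2 and 12.2 CPM in the WT libraries at 0 hpi and 3.45 and 3.24 at 120 hpi, with a log2 fold change of -1.91 ± 0.16 (SE) in WT, -1.18 ± 0.13 in R35A and -1.18 ± 0.14 in R35K, with an adjusted p of at most 1.33e-09; its exons overlap those of Mpv17l2 on the other strand. Rab3b was 9.40 and 10.8 CPM in the WT libraries at 0 hpi and 0.0802 and 0.683 at 120 hpi, and 9.95 and 8.86 against 0.311 and 0.722 CPM in R35A, and 9.78 and 10.8 against 0.462 and 0.227 in R35K, without overlap between the times. Its log2 fold change was -4.66 ± 0.30 (SE) in WT, -4.12 ± 0.27 in R35A and -4.83 ± 0.29 in R35K, with an adjusted p of at most 1.24e-16. Rab3c was at 0.285 and 0.146 CPM in WT at 0 hpi, 0.278 and 0.652 in R35A and 0.178 and 0.196 in R35K, and at 0 in all 6 libraries at 120 hpi. In R35A this was at least 2.07-fold lower, and in WT and R35K the mean at 0 hpi did not exceed the level of 3 counts in the 120 hpi libraries, so that no fold is given. The call on Rab3c was lost in WT without replicate 1 at 0 hpi or either library at 120 hpi, and in R35K with DESeq2 or without either library at 120 hpi. Rab37, which is found on mast cell granules, was 5.99 and 6.08 CPM in the WT libraries at 0 hpi and 1.84 and 2.39 at 120 hpi, and 6.40 and 4.24 against 1.56 and 0.939 CPM in R35A, and 6.04 and 5.61 against 1.92 and 2.34 in R35K. The log2 fold change of Rab37 was -1.44 ± 0.24 (SE) in WT, -2.05 ± 0.27 in R35A and -1.40 ± 0.22 in R35K, with an adjusted p of at most 6.56e-07.

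Of the 15 ER and Golgi members, 5 rose and 4 fell in WT, and 6 rose and 3 fell in each mutant. Of all genes 23.1% rose and 40.2% fell in WT, 24.2% and 39.0% in R35A, and 25.4% and 38.5% in R35K. Rab33a, of the Golgi and secretory vesicles, was 0.0712 and 0.146 CPM in the WT libraries at 0 hpi and 4.49 and 4.44 at 120 hpi, a ratio of 41.2 on 3 and 108 counts (95% interval 13.7 to 203, for counting error only). The mutants gave 0.278 and 0.217 against 13.2 and 13.7 CPM in R35A, and 0.178 and 0.457 against 8.47 and 8.32 in R35K. Rab19, a Golgi member, was 3.99 and 3.07 CPM in the WT libraries at 0 hpi and 13.6 and 14.1 at 120 hpi, and 3.13 and 3.75 against 14.6 and 13 CPM in R35A, and 3.56 and 3.85 against 11.5 and 11.7 in R35K. Rab19 separated the times in every construct, with a log2 fold change of 2.03 ± 0.16 (SE) in WT, 2.01 ± 0.15 in R35A and 1.70 ± 0.16 in R35K, with an adjusted p of at most 1.44e-11. Rab6b, which carries vesicles back from the Golgi to the ER, was 2.85 and 2.49 CPM in the WT libraries at 0 hpi and 7.38 and 4.78 at 120 hpi, and 2.64 and 2.72 against 10.9 and 11.1 CPM in R35A, and 2.96 and 2.35 against 10.8 and 10.8 in R35K. Its log2 fold change was 1.26 ± 0.22 (SE) in WT, 2.05 ± 0.18 in R35A and 2.07 ± 0.17 in R35K, with an adjusted p of at most 7.29e-07. Rab1b rose by 0.87 ± 0.041 on the log2 scale in WT. Rab39, linked to phagosomes, was 0.356 and 0.293 CPM in the WT libraries at 0 hpi and 0.642 and 0.512 at 120 hpi (0.89 on the log2 scale, adjusted p = 0.183), and 0.209 and 0.109 against 2.10 and 1.23 CPM in R35A, and 0.118 and 0.261 against 1.46 and 1.13 in R35K. It was called in both mutants, and in R35A the ratio of 120 to 0 hpi was 10.8 on 44 and 5 counts (95% interval 4.30 to 34.9).

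Rab34, which places lysosomes near the Golgi and takes part in cilium formation, was 59.1 and 56.8 CPM in the WT libraries at 0 hpi and 12.9 and 12.0 at 120 hpi. It gave 63.0 and 61.2 against 27.0 and 28.0 CPM in R35A, and 59.1 and 63.5 against 25.6 and 23.4 in R35K. All 120 hpi libraries were below all 0 hpi libraries, and the log2 fold change was -2.14 ± 0.069 (SE) in WT, -1.15 ± 0.055 in R35A and -1.27 ± 0.065 in R35K, with an adjusted p of at most 8.77e-19. Rab30, a Golgi member, was 3.92 and 3.22 CPM in the WT libraries at 0 hpi and 0.321 and 0.683 at 120 hpi, and 4.52 and 3.64 against 2.65 and 2.02 CPM in R35A, and 3.62 and 4.11 against 2.54 and 1.97 in R35K. The log2 fold change of Rab30 was -2.76 ± 0.35 (SE) in WT, -0.78 ± 0.22 in R35A and -0.72 ± 0.22 in R35K, with an adjusted p of at most 0.00388. Its call was lost without replicate 2 at 120 hpi in R35A (-0.43 on the log2 scale) and in R35K (-0.46). It was also lost with the compared groups alone in both mutants, and with DESeq2 in R35K. Rab39b, a neuronal member, was 0.427 and 0.366 CPM in the WT libraries at 0 hpi and 0 and 0.0853 at 120 hpi, and at 0 in all 4 mutant libraries at 120 hpi, which was at least 2.20-fold lower in R35A and 2.64-fold in R35K, while WT had 11 counts and 1 count. The call in WT was lost with DESeq2, and without replicate 1 at 0 hpi or replicate 1 at 120 hpi. Rab2b, with low counts and exons that overlap those of Tox4 on the other strand, fell in WT (-0.61 ± 0.20, adjusted p = 0.00395). It missed the fold threshold without either 120 hpi library, and with DESeq2, DESeq2 size factors, limma or the compared groups alone.

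Among the post-Golgi members, Rab8b, which carries cargo to the plasma membrane, was 78.7 and 74.7 CPM in the WT libraries at 0 hpi and 349 and 358 at 120 hpi. The mutants gave 77.6 and 70.9 against 338 and 370.3 CPM in R35A, and 78.1 and 69.5 against 329 and 368 in R35K. The times did not overlap, and the log2 fold change was 2.28 ± 0.044 (SE) in WT, 2.28 ± 0.043 in R35A and 2.29 ± 0.053 in R35K, with an adjusted p of at most 6.51e-29. Its sister Rab8a rose less (0.67 ± 0.043 in WT), and Rab8b went from 44.0% to 70.5% of the level per kilobase of the pair. Rab15, an endosomal member known from neurons, was 2.99 and 2.49 CPM in the WT libraries at 0 hpi and 0.0802 and 0.0853 at 120 hpi, and 2.78 and 2.12 against 0.234 and 0.361 CPM in R35A, and 2.37 and 3.00 against 0.154 and 0.151 in R35K. The ratio of 0 to 120 hpi was 33.2 on 76 and 2 counts in WT (95% interval 8.88 to 279) and 17.5 on 86 and 4 counts in R35K (6.59 to 65.7), and the log2 fold change in R35A was -2.96 ± 0.40 (adjusted p = 4.63e-09). Rab13, of epithelial junctions, was called at 120 hpi in R35K (0.78 ± 0.12), with 0.32 ± 0.14 in WT. Rab10, which carries cargo such as glucose transporters, stayed below the threshold (-0.19 in WT).

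The recycling endosome list moved least by count, with 1 of 7 members up and 1 down in each construct at 120 hpi and a median log2 fold change of 0.08 in WT against -0.36 for all genes, of which 23.1% rose and 40.2% fell. Rab4a, of the fast recycling route, was 8.41 and 8.27 CPM in the WT libraries at 0 hpi and 1.12 and 0.683 at 120 hpi. The mutants gave 8.21 and 8.42 against 2.18 and 2.02 CPM in R35A, and 8.53 and 8.67 against 1.54 and 1.74 in R35K. The groups were apart, and the log2 fold change was -3.11 ± 0.21 (SE) in WT, -1.97 ± 0.17 in R35A and -2.34 ± 0.18 in R35K, with an adjusted p of at most 7.63e-14. Rab4a went from 83.6% to 43.4% of its joint level per kilobase with Rab4b in WT. Rab11a, of the slow route, rose by call in R35A (0.69 ± 0.045) and R35K (0.79 ± 0.044), with 0.50 ± 0.048 in WT. Rab25, an epithelial relative, had 0.356 and 0.146 CPM in the WT libraries at 0 hpi and 0.642 and 0.768 at 120 hpi. Its call in WT was lost with DESeq2, and without replicate 2 at 0 hpi or either library at 120 hpi. Rab14, which links the Golgi and endosomes, and Rab35, of fast recycling, gave 0.16 and 0.06 in WT and were not called.

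Rab20, which is found on maturing phagosomes, rose most among the members without a role list. It was 3.13 and 2.71 CPM in the WT libraries at 0 hpi and 54.4 and 50.8 at 120 hpi, and 2.78 and 2.55 against 55.3 and 58.1 CPM in R35A, and 2.90 and 2.28 against 57.3 and 52.8 in R35K. No libraries of the times overlapped, and the log2 fold change was 4.24 ± 0.11 (SE) in WT, 4.43 ± 0.11 in R35A and 4.45 ± 0.11 in R35K, with an adjusted p of at most 1.61e-28. Rab23, a brake on Hedgehog signalling at the cilium, fell from 28.8 and 29.9 to 6.74 and 7.34 CPM in WT, with a log2 fold change of -1.99 ± 0.10 (SE) in WT, -1.01 ± 0.083 in R35A and -1.16 ± 0.086 in R35K, with an adjusted p of at most 2.63e-14. Rab40c, a Rab that joins a ubiquitin ligase, was 38.4 and 39.2 CPM in the WT libraries at 0 hpi and 20.4 and 18.9 at 120 hpi; it fell in WT (-0.91 ± 0.080) and R35K (-0.59 ± 0.068), and R35A gave -0.47 ± 0.071. In R35K the call was lost without replicate 2 at 0 hpi or either library at 120 hpi. It was also lost with DESeq2, DESeq2 size factors, no filter, limma, the compared groups alone or all 36 libraries in one fit. Rab40b was near the floor, with 0.641 and 0.805 CPM in the WT libraries at 0 hpi and 0.321 and 0.0853 at 120 hpi. Its calls in WT, R35A and R35K were lost with DESeq2 and without replicate 2 at 120 hpi. They were also lost without replicate 2 at 0 hpi in WT, and without replicate 1 at 0 hpi in R35A and R35K.

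The question for the mutants was how early they act. At 1 hpi the change of 6 of 55 Rab genes differed between R35A and WT by the test of the difference, 4 of them higher in R35A and 2 lower, against 5.29% and 8.74% of all genes. Between R35K and WT 8 differed, 5 higher and 3 lower, against 6.84% and 5.08% of all genes. The comparisons share the WT libraries. Rab7b, Rab20 and Rab32 were higher, and Rab27a and Rab3a lower, in both. Of the feeder markers, 2 of 11 were called higher in R35A and 1 of 11 in R35K, against the same 5.29% and 6.84% of all genes. Their differences in log2 change ran from -0.41 to 1.39 (median 0.12) in R35A and from -0.57 to 1.5 (median -0.09) in R35K. Their part in the Rab differences at 1 hpi was not tested.

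Rab7b had 8.27 and 7.91 CPM at 0 hpi and 31.6 and 31.7 at 1 hpi in WT, 6.26 and 6.36 and then 83.6 and 82.2 in R35A, and 6.64 and 6.98 and then 124 and 121 in R35K. All 4 mutant libraries at 1 hpi were above both WT libraries, and the log2 change exceeded that of WT by 1.72 ± 0.13 (SE, adjusted p = 1.85e-16) for R35A and 2.27 ± 0.12 (adjusted p = 7.34e-23) for R35K. Rab20 had 3.13 and 2.71 CPM at 0 hpi and 5.48 and 5.49 at 1 hpi in WT, 2.78 and 2.55 and then 16.2 and 14.7 in R35A, and 2.90 and 2.28 and then 17.3 and 17.0 in R35K, with the same separation. Its change exceeded that of WT by 1.61 ± 0.23 (SE, adjusted p = 1.37e-07) for R35A and 1.87 ± 0.23 (adjusted p = 1.59e-09) for R35K. Rab32 had 19.0 and 18.7 CPM at 0 hpi and 32.9 and 35.6 at 1 hpi in WT, 21.6 and 20.8 and then 65.5 and 67.8 in R35A, and 18.9 and 17.4 and then 77.0 and 81.1 in R35K, and the excess was 0.77 ± 0.096 (SE, adjusted p = 3.25e-09) for R35A and 1.32 ± 0.098 (adjusted p = 7.88e-17) for R35K. At 1 hpi the mutants had thus passed the WT level of 18 hpi for these genes, which was 34.9 and 37.5 CPM for Rab7b, 6.87 and 7.89 for Rab20 and 42.2 and 42.7 for Rab32. These levels were not tested against each other, and those of R35K come from separate count tables.

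Rab27a moved the other way at 1 hpi. It had 19.2 and 16.3 CPM at 0 hpi and 22.2 and 22.5 at 1 hpi in WT, 16.3 and 16.7 and then 7.88 and 7.09 in R35A, and 17.5 and 17.5 and then 7.73 and 9.09 in R35K. Both WT libraries at 1 hpi lay above, and all 4 mutant libraries below, the 0 hpi libraries of their construct. The change in WT stayed under the fold threshold. The difference in log2 change was -1.49 ± 0.14 (SE, adjusted p = 5.08e-13) for R35A and -1.32 ± 0.13 (adjusted p = 3.22e-12) for R35K. WT fell only later, to 6.15 and 5.99 CPM at 18 hpi, when R35A stood at 5.30 and 4.92. Rab3a had 14.2 and 12.2 CPM at 0 hpi and 10.7 and 10.4 at 1 hpi in WT, 13.7 and 13.7 and then 7.54 and 5.74 in R35A, and 13.4 and 14.6 and then 7.08 and 6.56 in R35K, a difference of -0.74 ± 0.17 (SE, adjusted p = 0.000317) for R35A and -0.64 ± 0.17 (adjusted p = 0.00254) for R35K. Its call for R35A was lost without replicate 2 of R35A at 1 hpi, and for R35K without replicate 2 of WT at 0 hpi or replicate 2 of R35K at 0 or 1 hpi. For R35A alone Rab15 differed (0.71 ± 0.28, adjusted p = 0.0482), a call lost without any of 5 of the 8 libraries. This call was also lost with DESeq2, no filter, limma or a replicate block. For R35K alone the changes of Rab31 (0.79 ± 0.060, adjusted p = 1.47e-16), Rab29 (0.67 ± 0.17, adjusted p = 0.00182) and Rab3b (-0.96 ± 0.24, adjusted p = 0.00115) differed from WT. Whether the mutants differ from each other in these was not tested. Rab31 at 1 hpi was also above WT in R35A, without a call on the difference in change. It had 204.5 and 198 CPM in R35A and 140 and 148 in WT. The call on Rab29 was lost without replicate 1 of R35K at 0 hpi, and that on Rab3b with limma.

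**Figure D3:**
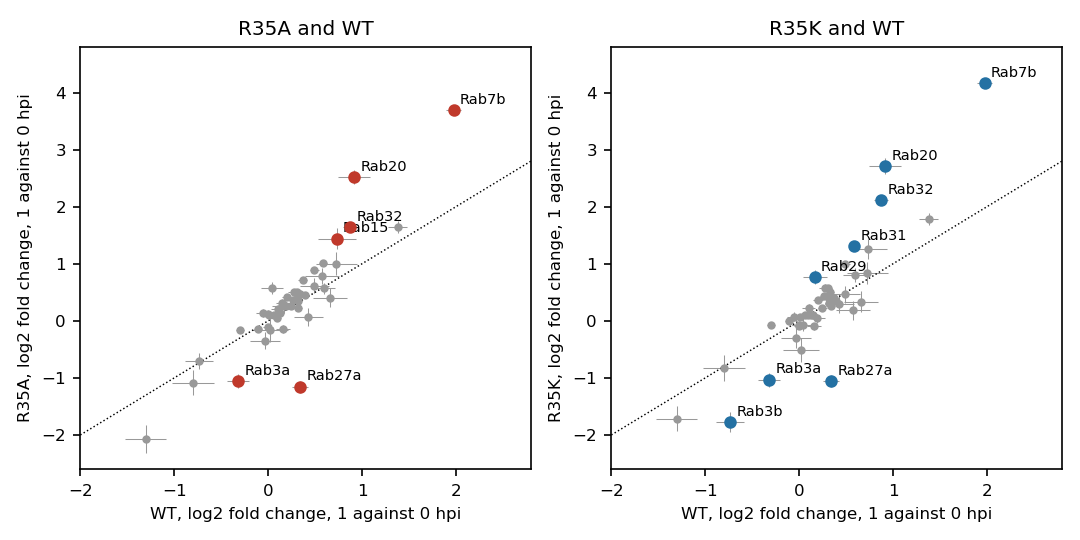
Log2 fold change at 1 against 0 hpi in WT (x axis) and in R35A or R35K (y axis, left and right panel), with SE bars and a dotted line of equality, for 47 members with an SE under 0.3 in the mutant; the other 8 are not drawn. Coloured, named points are members whose change was called different from WT, with Rab7b at 1.98 in WT against 3.70 and 4.17 in the mutants and Rab27a at 0.34 against -1.15 and -1.05.

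In WT 11 members changed in opposite directions before and after 18 hpi. From 18 to 120 hpi, 21 of 55 Rab genes rose and 21 fell in WT, against 27.5% and 33.0% of all genes. Up and then down went 8 members (15.0% of all genes), namely Rab13, Rab15, Rab27b, Rab30, Rab34, Rab3b, Rab40c and Rab4a. These courses compare 0, 18 and 120 hpi only. Rab3b first fell in WT, to 5.89 and 6.09 CPM at 1 hpi, a call lost with limma. Its rise at 18 hpi in WT was also lost with limma. At 18 hpi its log2 fold change was -0.34 in R35A and -0.29 in R35K. Rab34 had 59.1 and 56.8 CPM at 0 hpi, 113 and 113 at 18 hpi and 12.9 and 12.0 at 120 hpi. Rab4a had 8.41 and 8.27, 15.7 and 15.6 and 1.12 and 0.683 CPM at the same times, and Rab3b 9.40 and 10.8, 17.9 and 16.8 and 0.0802 and 0.683. In each the libraries of the 3 times did not overlap. The others followed the same course in WT, with Rab13 at 7.62 and 7.10, 16.7 and 15.5 and 8.98 and 8.45 CPM, and Rab40c at 38.4 and 39.2, 59.9 and 59.8 and 20.4 and 18.9.

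Feeder fibroblast markers took this same course: of 11, 10 rose at 18 hpi and 11 fell at 120 hpi in WT, with a median log2 fold change of -4.29 at 120 hpi, where Lum was at 0. Their part in the course of these 8 Rab genes was not tested. Down and then up went 3 members (9.34% of all genes). Rab27a had 19.2 and 16.3 CPM at 0 hpi, 6.15 and 5.99 at 18 hpi and 49.1 and 49.4 at 120 hpi. Rab19 had 3.99 and 3.07, 1.36 and 1.72 and 13.6 and 14.1 CPM, and Rab37 5.99 and 6.08, 0.842 and 1.30 and 1.84 and 2.39. Rab37 thus ended between its other levels, and Rab27a and Rab19 ended above their start.

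**Figure D4:**
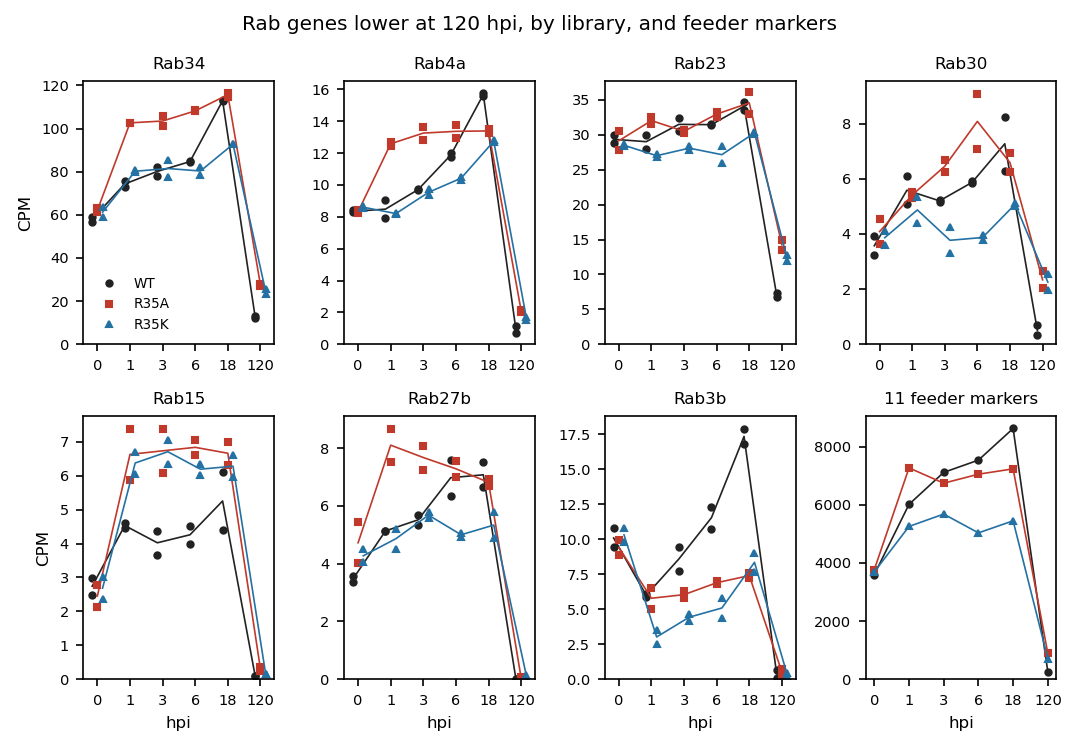
CPM (y axis, from 0) of 7 Rab genes that fell, by hpi (x axis, equally spaced categories, not to scale), with 1 point per library and lines through the group means, and in the last panel the group mean of the summed CPM of 11 feeder fibroblast markers. In WT the marker sum goes from 3601 at 0 hpi to 8632 at 18 hpi and 252 at 120 hpi, and Rab34 from 59.1 and 56.8 to 113 and 113 and 12.9 and 12.0 CPM.

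At 120 hpi the constructs differed in some members. Compared directly, 9 of 55 Rab genes were higher and 5 lower in R35A than in WT (12.4% and 6.38% of all genes). By the difference in change from 0 hpi, a comparison added after values were seen, 8 were higher and 3 lower in R35A (9.85% and 4.63%), and 5 higher and 2 lower in R35K (7.51% and 2.63%). Rab44 was the clearest of the lower ones. With 120 hpi levels of 51.3 and 51.9 CPM in WT, 9.27 and 8.31 in R35A and 9.39 and 8.47 in R35K, its change was -2.32 ± 0.23 (SE, adjusted p = 1.03e-11) and -2.78 ± 0.22 (adjusted p = 2.72e-15) relative to that of WT on the log2 scale. Rab36 was also lower in both, by -0.85 ± 0.22 and -0.94 ± 0.22.

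Rab34, Rab23, Rab30, Rab3a and Rab6b kept more of their level, or rose more, in both mutants. For Rab34 the change exceeded that of WT by 0.99 ± 0.093 (adjusted p = 1.3e-12) in R35A and 0.84 ± 0.097 (adjusted p = 3.76e-10) in R35K. For Rab23 the values were 0.98 ± 0.14 and 0.80 ± 0.14, and for Rab30 1.98 ± 0.45 and 2.01 ± 0.45. The calls on Rab3a and Rab6b were lost when single libraries were left out. Feeder markers were higher in the mutants too: 9 of 11 were called up at 120 hpi in R35A against WT, with a median of 1.61 on the log2 scale, 9 of 11 in the difference in change for R35A (median 1.54) and 9 of 11 for R35K (median 1.27). Their sums were 252 CPM in WT, 889.6 in R35A and 706 in R35K, and their part in the higher Rab values was not tested. Rab32, higher in R35A by 0.62 ± 0.088 (adjusted p = 9.09e-08), stood at 156 and 155 CPM in WT and 275 and 282 in R35A. Calls on Rab4a and Rab6b in R35A against WT at 120 hpi were lost without replicate 2 of WT at 120 hpi, as were those on Rab36, Rab37, Rab39 and Rab25, which left 8 of the 14.

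The pathway genes load, switch and read the Rab proteins. Of 119 such genes tested, 48 rose and 23 fell in WT at 120 hpi, with a median log2 fold change of 0.31, beside 23.1% and 40.2% of all genes and a median of -0.36. In R35A 51 rose and 22 fell (24.2% and 39.0% of all genes), and in R35K 48 rose and 20 fell of 117 (25.4% and 38.5%). Among 34 GEF genes 14 rose and 5 fell in WT, to be read against the same 23.1% and 40.2%. The largest rises were those of Rab3il1 (6.05 ± 0.099), a GEF of Rab3 and Rab8 proteins, Rin2 (4.03 ± 0.046), a GEF of Rab5 proteins, and Dennd1c (3.83 ± 0.092), which acts on Rab35. Rab3il1 had 2.31 ± 0.248 CPM at 0 hpi and 146 ± 5.58 at 120 hpi (SD, n = 2) in WT. The largest falls were those of Dennd5b (-4.81 ± 0.13), Rin1 (-2.58 ± 0.093), another Rab5 GEF, and Dennd2c (-1.74 ± 0.098). Rin2 had 32.2 ± 1.43 CPM at 0 hpi and 501 ± 2.56 at 120 hpi (SD, n = 2), and Rin1 42.1 ± 0.625 CPM at 0 hpi and 6.71 ± 0.529 at 120 hpi (SD, n = 2), so that the pair of Rab5 GEFs changed in opposite directions.

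Of 33 GAP genes 14 rose and 7 fell in WT (23.1% and 40.2% of all genes). Tbc1d2b (3.35 ± 0.058), Tbc1d9 (2.99 ± 0.058) and Tbc1d13 (1.72 ± 0.049) rose most, and Sgsm1 (-3.53 ± 0.56), Tbc1d10c (-2.73 ± 0.10) and Rabgap1l (-1.94 ± 0.050) fell most. Sgsm1 went from 1.59 CPM at 0 hpi to 0.123 at 120 hpi in WT. With at most 2 counts in a 120 hpi library it was under the floor of 3 counts, so its fold is imprecise. Of 42 effector genes 17 rose and 11 fell, against the same shares. The rises were led by Rab11fip4 (4.28 ± 0.24) and Rab11fip1 (3.95 ± 0.072), which bind Rab11 proteins, and Appl2 (2.43 ± 0.058), which binds Rab5. Rims1, Rph3al and Sytl3, effectors of Rab3 and Rab27 proteins in exocytosis, fell from low levels of 2.10, 1.30 and 0.539 CPM to 0. Of the genes for prenylation and membrane extraction 2 of 8 rose and 0 fell in edgeR, with the rises near the 23.1% of all genes and a median log2 fold change of 0.26 against -0.36. The risers were Rabggta (0.90 ± 0.094), a subunit of the Rab geranylgeranyl transferase, and Rabac1 (0.73 ± 0.061). Of the Rab kinases Lrrk1 and Lrrk2, Lrrk2 (1.11 ± 0.055) rose.

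Summed by role per kilobase, the make-up of the Rab transcripts shifted. In WT the ER and Golgi members went from 33.9% of the total at 0 hpi to 25.0% at 120 hpi and the recycling members from 12.9% to 8.06%. Late endosome and lysosome members went from 16.2% to 21.1%, those of lysosome-related organelles from 2.31% to 7.10%, early endosome members from 19.6% to 21.7%, and regulated secretion from 1.5% to 3.08%. The libraries of 0 and 120 hpi did not overlap in any of these 6 shares. The smaller shares were not lower levels, as the total rose. In WT the summed CPM of ER and Golgi members went from a mean of 907.5 at 0 hpi to 1143.3 at 120 hpi. That of recycling members went from 507.8 to 547.1. In the mutants at 120 hpi the lysosome-related members reached 9.73% in R35A and 8.51% in R35K, and the late endosome members 18.7% and 19.4%.

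**Figure D5:**
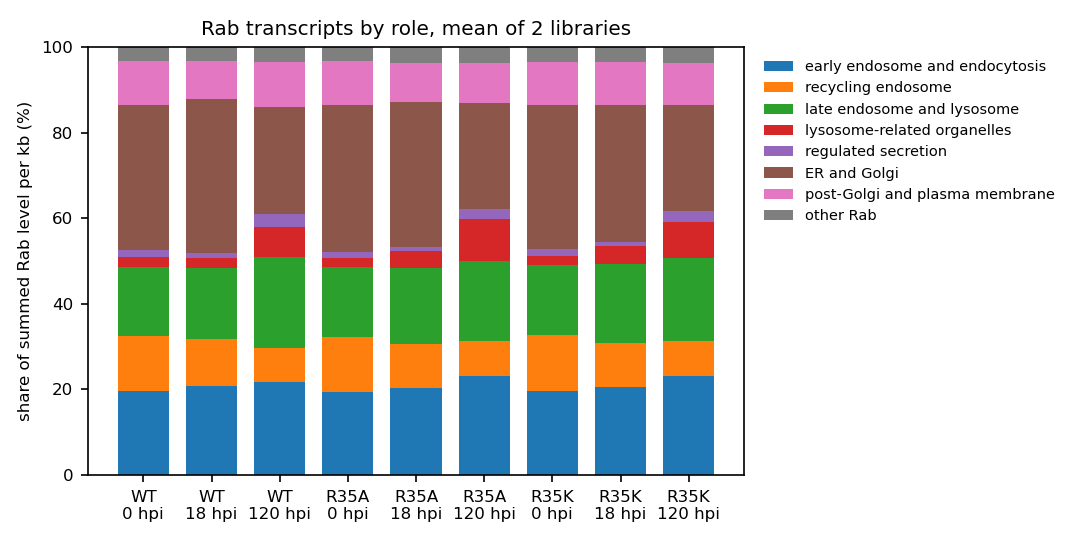
Share of the summed Rab level per kilobase (y axis, percent, stacked to 100%) by role list at 0, 18 and 120 hpi in WT, R35A and R35K, as means of 2 libraries. The ER and Golgi layer narrows from 33.9% to 25.0% in WT between 0 and 120 hpi, and the late endosome and lysosome-related layers widen from 16.2% to 21.1% and from 2.31% to 7.10%.

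Exons of 15 member and partner pairs overlap on opposite strands, among them Rab24 with Prelid1, Rab2b with Tox4, Rab3a with Mpv17l2, Rab10 with Rab10os and Rab6a with Mrpl48. The kit marks strand, but which strand column was counted is not given in the sources used here, and values of such members may hold reads of the partner. Close relatives such as Rab1 and Rab1b can also share reads.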

How the data were processed

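RNA from 36 libraries, 2 for each of 18 groups, was analysed. The deposited counts are raw reads per gene; the authors aligned single-end reads of stranded mRNA libraries with STAR 2.5.0a to mm10, after FastQC, and counted them per gene. Annotation release and strand column are not given in the sources used here. The deposited log2 values are log2 of the count divided by a DESeq2 1.14.1 size factor plus 1, by the authors, and chose the members. Counts were tested with edgeR 4.0.16 (R 4.3.3) by TMM scaling, filterByExpr and the quasi-likelihood test, with Benjamini-Hochberg adjustment over all genes: WT and R35A in one fit (24 libraries, 16988 genes), R35K alone (12 libraries, 16434 genes), and all 36 for R35K minus WT differences in change (17277 genes). CPM were scaled by TMM over all 36 libraries and all genes, so ratios of CPM can differ slightly from fitted changes. Levels per kilobase divided the deposited normalized counts by the union of exons (GENCODE vM21). The number of counts limits precision, and folds against groups at 0 used a floor of 3 counts per library; floors cover counting error only. Alternatives were DESeq2 1.42.0, limma 3.58.1 on the log2 values, DESeq2 size factors, no filter, other thresholds, other sample sets, a replicate block and leaving out each library. Replicates differed by more than sampling noise (chi-square per degree of freedom 1.121 to 16.65).

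Groups came from the labels. The fits were tested on simulated data, with a pass criterion that was revised more than once after output had been seen. Genes described in full were members called the same way at 120 hpi in all 3 constructs with a log2 fold change of 2 or more in 1, those with a log2 difference in change of 1 or more at 1 hpi between R35A and WT, those of opposite courses in WT, and the 4 highest per kilobase; pathway lists were named by their 3 largest rises and falls. The members, role lists and pathway lists were chosen with earlier results of these data known, so they are not independent evidence. Role lists follow textbook functions, and some members have several.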

Additional observations from a re-analysis of the deposited data

Results flagged for a closer look

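The change of a Rab gene from 0 hpi differed between a mutant and WT in 32 cases, by the edgeR test of the difference itself, and each is given here as the difference in log2 fold change (mutant minus WT) with its SE and adjusted p. At 1 hpi the change in R35A exceeded that in WT for Rab7b (1.72 ± 0.13, 1.85e-16), Rab20 (1.61 ± 0.23, 1.37e-07), Rab32 (0.77 ± 0.096, 3.25e-09) and Rab15 (0.71 ± 0.28, 0.0482), and lay below it for Rab27a (-1.49 ± 0.14, 5.08e-13) and Rab3a (-0.74 ± 0.17, 0.000317). At the same time the change in R35K exceeded that in WT for Rab7b (2.27 ± 0.12, 7.34e-23), Rab20 (1.87 ± 0.23, 1.59e-09), Rab32 (1.32 ± 0.098, 7.88e-17), Rab31 (0.79 ± 0.060, 1.47e-16) and Rab29 (0.67 ± 0.17, 0.00182), and lay below it for Rab27a (-1.32 ± 0.13, 3.22e-12), Rab3b (-0.96 ± 0.24, 0.00115) and Rab3a (-0.64 ± 0.17, 0.00254). The 2 sets share the WT libraries.

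At 120 hpi R35A exceeded WT for Rab39 (2.5 ± 0.91, 0.0286), Rab30 (1.98 ± 0.45, 0.00036), Rab4a (1.15 ± 0.32, 0.00784), Rab34 (0.99 ± 0.093, 1.3e-12), Rab23 (0.98 ± 0.14, 7.63e-08), Rab6b (0.78 ± 0.29, 0.0344), Rab3a (0.73 ± 0.22, 0.00709) and Rab32 (0.62 ± 0.088, 9.09e-08), and lay below it for Rab25 (-3.01 ± 1.03, 0.0189), Rab44 (-2.32 ± 0.23, 1.03e-11) and Rab36 (-0.85 ± 0.22, 0.0018). For R35K the change exceeded that in WT for Rab30 (2.01 ± 0.45, 0.000438), Rab34 (0.84 ± 0.097, 3.76e-10), Rab23 (0.80 ± 0.14, 5e-06), Rab6b (0.78 ± 0.30, 0.0486) and Rab3a (0.70 ± 0.22, 0.0145), and lay below it for Rab44 (-2.78 ± 0.22, 2.72e-15) and Rab36 (-0.94 ± 0.22, 0.00088). Rab25 in R35A at 120 hpi rests on 3 and 2 counts, and Rab39 in R35A at 0 hpi on 3 and 2. Feeder fibroblast markers differed between the constructs at 120 hpi in the same comparisons (9 of 11 higher in each mutant), and their part in these values was not tested. At 120 hpi in R35A the calls on Rab25 (in 4 of 8), Rab39 (in 5 of 8) and Rab6b (in 7 of 8) were lost in several of the fits that left out 1 library, that on Rab3a without replicate 1 of R35A at 120 hpi, and that on Rab4a without replicate 2 of WT at 120 hpi. In R35K those on Rab6b (in 6 of 8) and Rab3a (in 3 of 8) were lost. With DESeq2 the calls on Rab25, Rab39 and Rab6b in R35A and on Rab6b in R35K were also lost. Fitted on the compared groups alone, so were those on Rab6b in both mutants and Rab32 in R35A. With groups of 2, no group was large enough to look for a single library far from the others.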

How the results depend on the processing

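The counts of changed Rab genes rest on the fold threshold. With a 2-fold threshold the count was 4 for WT at 1 hpi, 11 each for WT, R35A and R35K at 18 hpi, 3 and 4 for the differences in change at 1 hpi of R35A and R35K from WT, and 7 for R35A against WT at 120 hpi. With no fold threshold it was 35 for WT at 1 hpi, 44 for WT at 18 hpi, 39 and 43 for R35A, 35 and 38 for R35K at 1 and 18 hpi, 13 and 17 for the differences at 1 hpi of R35A and R35K, and 32 for R35A against WT at 120 hpi. When each library was left out in turn, the count ranged from 8 to 14 for WT at 1 hpi and from 8 to 14 for R35A against WT at 120 hpi, the lowest without replicate 2 of WT at 0 hpi and without replicate 2 of WT at 120 hpi. It ranged from 20 to 22 for WT at 18 hpi, 34 to 35 for WT at 120 hpi, 32 to 36 for R35A and 32 to 35 for R35K at 120 hpi. With the replicate number as a block the counts were 13, 20 and 37 for WT at 1, 18 and 120 hpi, 16, 19 and 35 for R35A, 17, 19 and 36 for R35K, 5 and 8 for the differences at 1 hpi, and 13 for R35A against WT at 120 hpi. The numbers do not mark shared animals by the labels, and samples with the same number did not deviate together: of 153 pairs of groups, 3 had a correlation of deviations above 0.1, with a median of -0.00332. DESeq2 size factors in place of TMM moved the median of all genes up by 0.158 on the log2 scale for WT at 120 hpi, 0.129 for R35A and 0.136 for R35K, and by 0.115 for WT at 18 hpi, where the Rab genes called up went from 16 to 24. DESeq2, limma, no filter and fits on the compared groups alone kept every other count within 1.5 times. Of the single calls, 0 reversed in any of these fits, and Rab6b, Rab25 and Rab3c lost calls most often. Fitted on the compared groups alone, the prenylation list had 4 calls in place of 2 in WT at 120 hpi, and the Rab kinases 2 in place of 1. Depth limits members under 1 CPM, where 3 counts were worth 0.186 to 0.248 CPM.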
